A study of Mus musculus with 12 samples.

Results

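In mouse MEC endothelial cells given BMP6, 45 of 8267 named genes lay below control after 4 h and close to control again after 24 h. They were chosen by measured values: the 4 h array minus the control array with the same title number was at most -0.25 in all 3 pairs, and the mean of the 3 differences at 24 h lay between -0.2 and 0.2. Armcx genes, ribosomal and respiratory chain genes and 8 genes given by name (Sema3a, Sesn1, Rbl2, Prrx1, Cdh11, Dhcr7, Fdft1 and Vegfd) were left out of the choice, which removed Armcx2, Armcx3, Armcx6, Prrx1, Rbl2, Sesn1 and Vegfd from 52 genes that met both limits. The 4 h and 24 h values below therefore describe the choice and carry no test. The 12 h arrays had no part in it, but the control arrays they are compared with did.

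MECs are a cell line of mouse intraembryonic endothelium. The 12 two-colour arrays held 3 each of mock-treated controls, whose time in culture is not in the labels, and of cells given BMP6 for 4, 12 or 24 h, with the dose not given in the sources used here. The design text calls the 3 arrays of a group independent biological replicates. Each array set Cy5-labelled RNA of the cells against a Cy3-labelled pool of mouse RNA, so each value is a log ratio of the cells to that reference, called the level here.

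The base and sign of the ratios are not stated. Here base 2 and the cells on top were assumed. With the opposite sign every lower value below would be a higher one, and with natural logarithms every fold would be larger. Id1, Id2 and Id3, direct targets of BMP signals, stood 0.98, 0.84 and 0.64 above control at 4 h, and Ptgs2, the cyclooxygenase 2 gene of the series title, stood 1.35 above it, each in 3 of 3 pairs. The chosen sign is therefore the likely one, on the basis of the dyes and of these genes. Gene names depend on an order of the array positions recovered from these data, under which the first 2 probes of a gene correlate across 1831 genes (r = 0.471, against 0.021 in the deposited order; genes are not independent replicates). Both the order and r come from these data, so r is no independent check of the names. Id1, Id2, Id3 and Ptgs2 are named through the same order. Spot intensities were not used here, so nothing is said on whether a probe was detected.

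BMP6 is a secreted ligand of the TGF-beta superfamily. It binds type I and type II serine/threonine kinase receptors, which phosphorylate SMAD proteins that enter the nucleus and switch genes on or off, and in endothelium such signals are known for roles in vessel growth and activation. Levels of a messenger RNA can fall after a stimulus through less transcription or faster decay, and arrays do not tell these apart. In whole cultures, fewer cells that express a gene and less RNA per cell cannot be told apart either.

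The lower limits caught a larger group than the 45. At 4 h, 71 named genes were at most -0.25 in all 3 pairs. Of these, 52 had a mean 24 h difference within 0.2 of control, 19 lay below that window and 0 above it. In the other direction 87 genes were at least 0.25 above control in all 3 pairs, of which 67 were back within the window at 24 h. Just inside the 4 h limit were Scaper, Pde6d and Tia1, whose smallest differences over the 3 pairs were -0.252, -0.254 and -0.257. Just outside it were Ncapg, Zfand6 and Zhx1 at -0.249, -0.248 and -0.247. At the 24 h limit, Pmp22 (-0.193), Pdlim2 (-0.188) and Scel (0.184) lay just inside, and Aldh1a1 (-0.222), Heph (-0.228) and Alox5ap (-0.240) just outside. Neighbours across a limit thus differed by a few thousandths at 4 h.

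Over the 45 genes the mean 4 h difference ran from -0.79 to -0.26 with a median of -0.43, against a median of -0.0062 over all 8267 named genes. At 12 h the median was -0.24 (lowest -0.89, highest 0.02), against -0.002 over all named genes. At 24 h it was -0.11, within the window the choice imposed, against -0.005 over all named genes. The mean 24 h difference was below control in 38 of the 45 genes and above it in 7. The 24 h and control arrays both entered the choice, so nothing is read from this count. The comparisons at 4, 12 and 24 h share the same 3 control arrays. All 4 h arrays lay below all control arrays for 38 of the 45 genes. The same held for 6.33% of named genes, and nothing is read from this count because the 4 h values chose the genes.

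**Figure D1:**
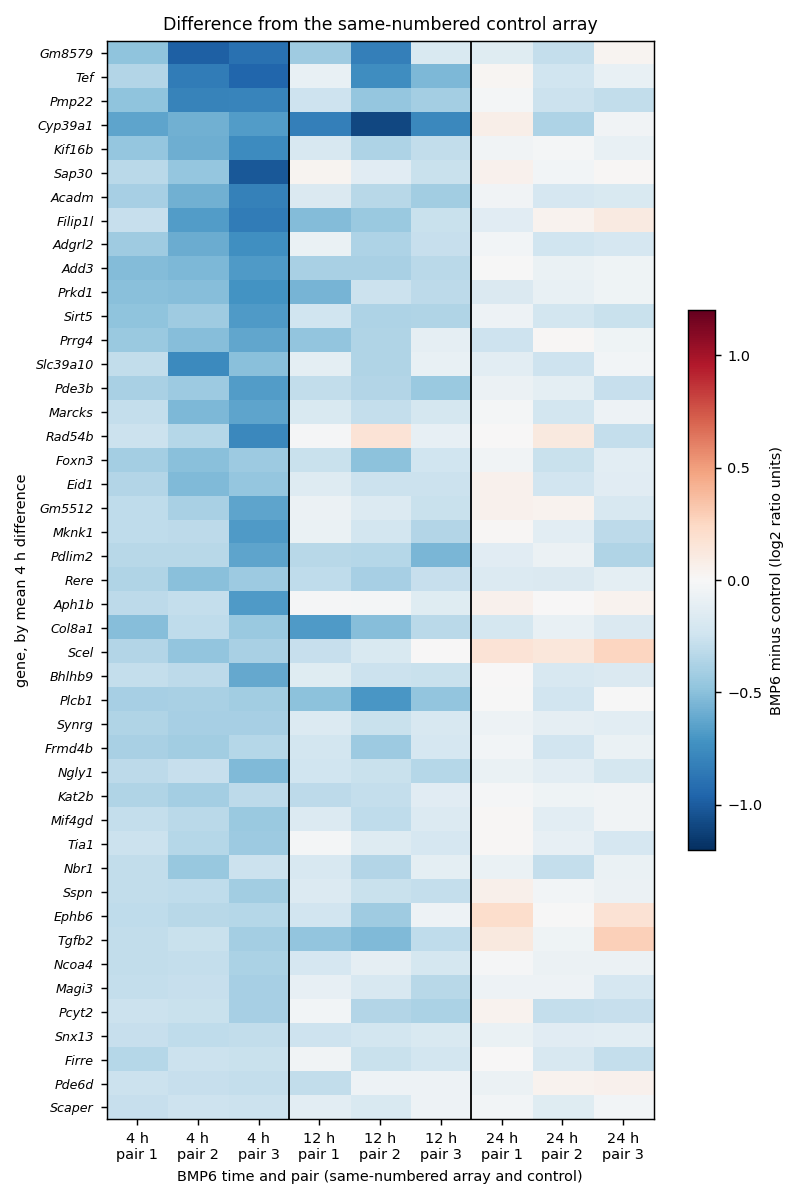
Difference of each BMP6 array from the control array of the same number, in log2 ratio units, for the 45 genes (rows, ordered by the mean 4 h difference) and 9 pairs (columns). The 4 h columns are blue throughout by construction, the 12 h columns are mostly paler with Cyp39a1, Plcb1, Col8a1 and Tgfb2 as exceptions, and the 24 h columns lie near 0.

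The upstream sequences of the 3 genes with the largest mean 4 h difference that RefSeq's promoter table holds are shown because these genes share the early drop by which the 45 were chosen. The table (GRCm38.p6) gives 250 bases before to 50 after a start site, and it holds 36 of the 45 genes by symbol. Tef is at chr15:81802423-81802722 on the plus strand, Pmp22 at chr11:63128732-63129031 on the plus strand and Kif16b at chr2:142901415-142901714 on the minus strand. For Tef and Pmp22 it is the first of 2 and 4 listed starts. Capitals mark matches on either strand to 7 motifs. These were the E-box of clock factors and others, CACGTG, the forkhead motif TGTTTAC, the Smad1/5 element GGCGCC, the Smad3/4 element GTCTAG, the cyclic AMP element TGACGTC, the TATA box as TATAAA, and the CCAAT box.
Tef: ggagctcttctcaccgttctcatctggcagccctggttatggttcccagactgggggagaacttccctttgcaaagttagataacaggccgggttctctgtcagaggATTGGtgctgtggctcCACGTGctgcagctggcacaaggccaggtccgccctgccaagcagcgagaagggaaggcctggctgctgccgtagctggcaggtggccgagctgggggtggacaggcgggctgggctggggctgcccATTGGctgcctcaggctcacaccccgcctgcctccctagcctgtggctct
Pmp22: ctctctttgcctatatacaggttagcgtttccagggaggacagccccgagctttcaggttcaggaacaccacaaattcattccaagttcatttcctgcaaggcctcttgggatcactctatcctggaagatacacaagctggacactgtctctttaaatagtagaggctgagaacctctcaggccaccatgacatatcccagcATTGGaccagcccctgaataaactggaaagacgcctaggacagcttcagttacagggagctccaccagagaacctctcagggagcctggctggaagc
Kif16b: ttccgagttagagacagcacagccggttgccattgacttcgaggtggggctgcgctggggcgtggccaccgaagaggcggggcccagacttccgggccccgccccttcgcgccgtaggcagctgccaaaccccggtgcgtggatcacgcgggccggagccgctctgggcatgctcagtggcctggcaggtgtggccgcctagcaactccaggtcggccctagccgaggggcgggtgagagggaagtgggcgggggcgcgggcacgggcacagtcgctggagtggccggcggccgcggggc
The Tef window holds an E-box at base 124 and CCAAT boxes on the minus strand (ATTGG as printed) at bases 108 and 251, counted from the 5′ end. The Pmp22 window holds a CCAAT box on the minus strand at base 204, and the Kif16b window none of the 7. Over the first listed start of each gene, CACGTG was found in 7 of 36 windows (19.4%; Add3, Firre, Mknk1, Scaper, Synrg, Tef and Tgfb2), against 10.6% of 6696 named genes in the table. CCAAT was found in 33.3% against 38.3%, GGCGCC in 11.1% against 21.6%, and TATAAA in 5.56% against 7.26%. The forkhead motif was in 0 of the 36 windows, against 2.57% of named genes, as were the Smad3/4 element (8.14%) and the cyclic AMP element (5.59%). None of the 7 motifs contains another. The median share of G and C was 59.8% against 61.0%, and the median observed over expected CpG was 0.649 against 0.767. These are descriptions of letters in a window, with no test.

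Regulators of transcription and chromatin were among the 45. Tef, a PAR bZIP factor of the clock-controlled group, stood at -0.19, 0.42 and 0.55 on the control arrays, -0.54, -0.42 and -0.40 at 4 h, -0.27, -0.33 and 0.02 at 12 h and -0.17, 0.17 and 0.46 at 24 h. Its 4 h arrays all lay below its control arrays, among which replicate 1 was low, and its 12 h arrays overlapped them. The mean difference from control was -0.71 ± 0.316 at 4 h (SD over 3 pairs), a 1.64-fold lower level, and -0.46 ± 0.339 at 12 h. At 24 h it was -0.10, but -0.33 without control replicate 1 and -0.26 without 24 h replicate 3, both outside the window. With any other 1 array left out it stayed inside the window. Kat2b, the histone acetyltransferase PCAF, stood at 0.12, 0.17 and 0.11 on the control arrays, -0.24, -0.24 and -0.21 at 4 h, -0.20, -0.12 and -0.03 at 12 h and 0.11, 0.11 and 0.07 at 24 h. Its arrays of one group lay close together, and neither the 4 h nor the 12 h arrays overlapped the controls. Its mean differences were -0.36 ± 0.048 at 4 h and -0.25 ± 0.096 at 12 h.

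Sap30, a subunit of the SIN3 histone deacetylase complex, stood at 1.07, 1.01 and 1.46 on the control arrays, 0.75, 0.55 and 0.44 at 4 h, 1.11, 0.87 and 1.19 at 12 h and 1.12, 0.98 and 1.47 at 24 h. It was low at 4 h and overlapped control at 12 h, with differences of -0.60 ± 0.367 and -0.12 ± 0.152. The 4 h mean leaned on pair 3, where the difference was -1.01. Foxn3, a forkhead repressor, stood at -0.17, -0.16 and -0.19 on the control arrays, -0.58, -0.66 and -0.62 at 4 h, -0.44, -0.65 and -0.42 at 12 h and -0.22, -0.43 and -0.32 at 24 h, with no overlap between the control arrays and those of 4, 12 or 24 h. Its mean 24 h difference was -0.15, inside the window. The atrophin-family corepressor Rere stood at 0.13, 0.23 and 0.43 on the control arrays, -0.23, -0.27 and -0.01 at 4 h, -0.18, -0.16 and 0.15 at 12 h and -0.04, 0.06 and 0.32 at 24 h. The 4 h arrays lay below the controls and 1 of 3 at 12 h overlapped them. Eid1, which inhibits the acetyltransferase EP300, differed by -0.45 at 4 h, -0.22 at 12 h and -0.11 at 24 h. Ncoa4, named as a nuclear receptor coactivator and known as the receptor for autophagy of ferritin, differed by -0.32 at 4 h, -0.18 at 12 h and -0.05 at 24 h. Nbr1, another autophagy receptor, differed by -0.34 at 4 h, -0.22 at 12 h and -0.15 at 24 h.

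The 45 also held the kinases Prkd1 and Mknk1, the phosphodiesterase-related genes Pde3b and Pde6d, and other signalling genes. Plcb1, a phospholipase C that makes diacylglycerol and inositol trisphosphate, stood at 0.33, 0.12 and 0.21 on the control arrays, -0.07, -0.28 and -0.20 at 4 h, -0.17, -0.58 and -0.26 at 12 h and 0.32, -0.12 and 0.21 at 24 h. The 3 pairs were alike at 4 h. Each 12 h array lay below the 4 h array of the same number, though the 4 h and 12 h arrays overlapped. The differences were -0.40 ± 0.011 at 4 h, -0.55 ± 0.125 at 12 h and -0.08 ± 0.129 at 24 h. Prkd1, the diacylglycerol-responsive protein kinase D1, stood at 1.43, 1.04 and 1.38 on the control arrays, 0.93, 0.53 and 0.66 at 4 h, 0.88, 0.78 and 1.07 at 12 h and 1.26, 0.95 and 1.33 at 24 h. It was lower in all pairs at 4 h and at 12 h, and its 12 h arrays overlapped the lowest control. Marcks, an actin-binding substrate of protein kinase C, differed by -0.49 at 4 h, -0.23 at 12 h and -0.10 at 24 h, with overlap between its 4 h and control arrays. Pde3b, which hydrolyses cyclic AMP, stood at 0.78, 0.34 and 0.71 on the control arrays, 0.39, -0.10 and 0.04 at 4 h, 0.49, -0.02 and 0.26 at 12 h and 0.71, 0.22 and 0.44 at 24 h. Replicate 2 was low throughout and the groups overlapped at each time, while every pair was lower at 4 h and 12 h. Pde6d, a chaperone of prenylated proteins, differed by -0.27 at 4 h, -0.14 at 12 h and 0.01 at 24 h. Mknk1, a kinase of the translation factor eIF4E, differed by -0.43 at 4 h, -0.22 at 12 h and -0.14 at 24 h.

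**Figure D2:**
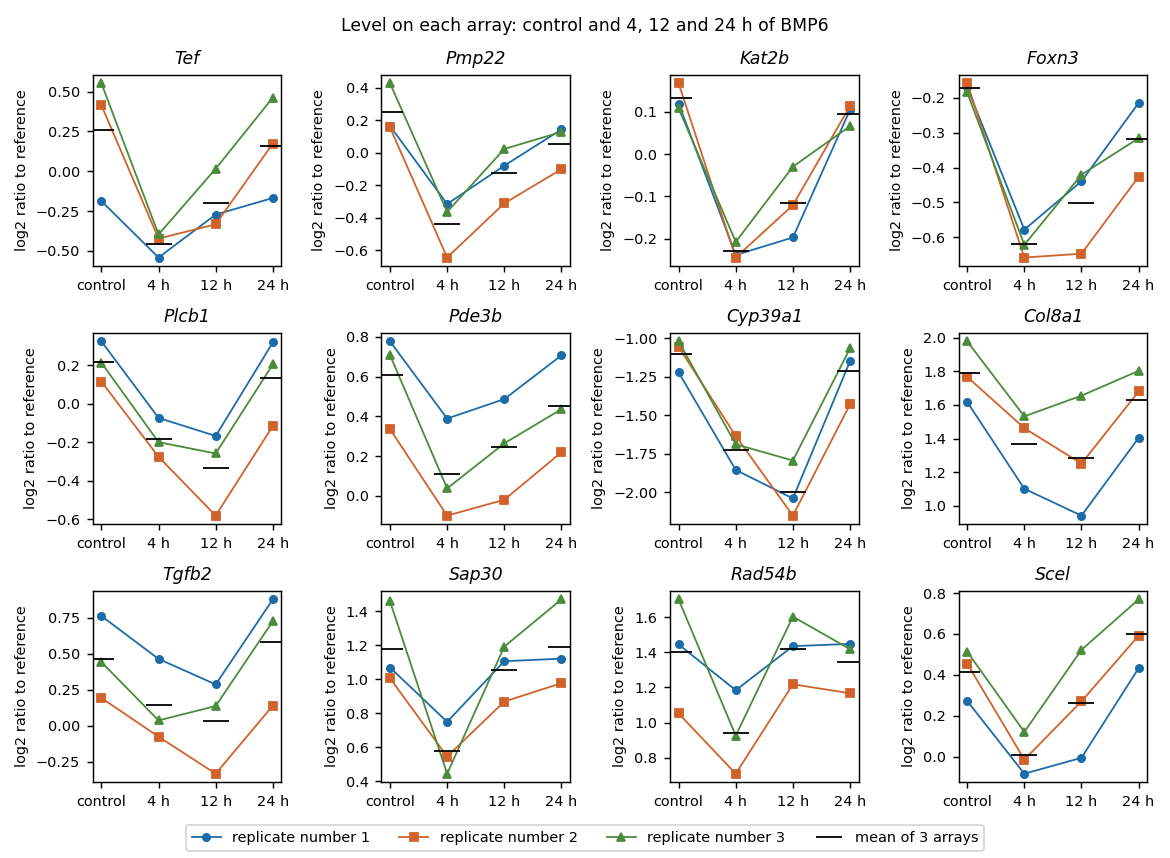
Level (log2 ratio to the reference RNA, y axes on separate scales) of 12 of the 45 genes on each array, for control and 4, 12 and 24 h of BMP6; lines join arrays with the same replicate number and bars are means of 3 arrays. Cyp39a1, Plcb1, Col8a1 and Tgfb2 have their lowest mean at 12 h, whereas Sap30 and Rad54b are near control there.

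Among the others were genes of membrane, junction and cytoskeletal proteins. Pmp22, a tetraspan membrane protein of myelin that is also expressed in growth-arrested cells, stood at 0.17, 0.16 and 0.43 on the control arrays, -0.32, -0.65 and -0.37 at 4 h, -0.08, -0.31 and 0.02 at 12 h and 0.14, -0.10 and 0.13 at 24 h. All 4 h and all 12 h arrays lay below all control arrays. It was 1.62-fold lower at 4 h (-0.69 ± 0.183), with -0.37 ± 0.115 at 12 h. Add3, the adducin gamma subunit that links spectrin to actin, stood at 0.24, 0.21 and 0.49 on the control arrays, -0.28, -0.33 and -0.19 at 4 h, -0.15, -0.18 and 0.17 at 12 h and 0.24, 0.13 and 0.44 at 24 h, without overlap of the 4 h or 12 h arrays with control. Pdlim2, a PDZ and LIM domain protein of the actin cytoskeleton and nucleus, stood at 0.60, 0.56 and 0.93 on the control arrays, 0.27, 0.23 and 0.30 at 4 h, 0.27, 0.22 and 0.38 at 12 h and 0.47, 0.49 and 0.57 at 24 h. Its 4 h and 12 h values were close to each other (-0.43 and -0.41 from control).

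The adhesion receptor Adgrl2 differed by -0.59 at 4 h, -0.24 at 12 h and -0.16 at 24 h, and Filip1l, a relative of a filamin-interacting protein, by -0.59 at 4 h, -0.41 at 12 h and 0.00 at 24 h. Ephb6, an ephrin receptor without kinase activity, differed by -0.33 at 4 h, -0.24 at 12 h and 0.13 at 24 h, and its 4 h arrays overlapped control. Sspn, of the dystrophin complex, differed by -0.34 at 4 h, -0.24 at 12 h and -0.01 at 24 h. The junction scaffold Magi3 differed by -0.32 at 4 h, -0.21 at 12 h and -0.11 at 24 h, the FERM domain protein Frmd4b by -0.38 at 4 h, -0.29 at 12 h and -0.11 at 24 h, and the membrane Gla protein Prrg4 by -0.53 at 4 h, -0.31 at 12 h and -0.09 at 24 h. Scel, a precursor of the cornified envelope in epidermis, stood at 0.27, 0.46 and 0.51 on the control arrays, -0.08, -0.01 and 0.12 at 4 h, -0.01, 0.27 and 0.52 at 12 h and 0.43, 0.59 and 0.77 at 24 h. It was low at 4 h and its 24 h mean lay 0.18 above control, the highest 24 h value of the 45.

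A matrix gene and a growth factor had a lower mean at 12 h than at 4 h, in both cases with replicate 3 the other way; the difference from 4 h was not tested, since the 4 h values chose the genes. Col8a1, a collagen VIII chain of the vessel wall, stood at 1.62, 1.77 and 1.98 on the control arrays, 1.10, 1.46 and 1.53 at 4 h, 0.94, 1.25 and 1.66 at 12 h and 1.40, 1.68 and 1.80 at 24 h. Tgfb2, a ligand of the TGF-beta family, stood at 0.76, 0.19 and 0.44 on the control arrays, 0.46, -0.08 and 0.04 at 4 h, 0.29, -0.33 and 0.14 at 12 h and 0.88, 0.14 and 0.73 at 24 h. The Tgfb2 arrays of replicate 1 were high and those of replicate 2 low in every group, so its groups overlapped although each pair was lower at 4 h and 12 h. Col8a1 differed from control by -0.42 ± 0.107 at 4 h and -0.50 ± 0.176 at 12 h, and Tgfb2 by -0.32 ± 0.072 and -0.44 ± 0.116. At 24 h Col8a1 stood at -0.16 and Tgfb2 at 0.12 from control.

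Among metabolic enzymes, Cyp39a1, which hydroxylates oxysterols on the way to bile acids, had the lowest 12 h value of the 45. It stood at -1.22, -1.06 and -1.02 on the control arrays, -1.85, -1.63 and -1.69 at 4 h, -2.04, -2.15 and -1.79 at 12 h and -1.15, -1.43 and -1.07 at 24 h. The 4 h and 12 h arrays lay below control, 2 of the 3 at 12 h also lay below all 4 h arrays, and the 24 h arrays overlapped control. The level was 1.54-fold lower than control at 4 h (-0.63 ± 0.045) and 1.86-fold lower at 12 h (-0.89 ± 0.174). Acadm, the medium-chain acyl-CoA dehydrogenase of fatty acid oxidation, differed by -0.59 at 4 h, -0.31 at 12 h and -0.14 at 24 h. Sirt5, a mitochondrial lysine deacylase, differed by -0.53 at 4 h, -0.32 at 12 h and -0.18 at 24 h. Pcyt2, of phosphatidylethanolamine synthesis, differed by -0.31 at 4 h, -0.25 at 12 h and -0.17 at 24 h, and the glycoprotein deglycosylase Ngly1 by -0.37 at 4 h, -0.28 at 12 h and -0.14 at 24 h.

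The remaining genes have varied roles. Kif16b, a kinesin of early endosomes, differed by -0.60 at 4 h, -0.29 at 12 h and -0.05 at 24 h, the zinc importer Slc39a10 by -0.52 at 4 h, -0.19 at 12 h and -0.14 at 24 h, and the sorting nexin Snx13 by -0.29 at 4 h, -0.22 at 12 h and -0.11 at 24 h. Synrg, which binds the clathrin adaptor AP1, differed by -0.39 at 4 h, -0.21 at 12 h and -0.10 at 24 h, and Scaper, a protein of the endoplasmic reticulum that binds cyclin A, by -0.26 at 4 h, -0.12 at 12 h and -0.07 at 24 h. Rad54b, of homologous recombination, stood at 1.45, 1.05 and 1.70 on the control arrays, 1.18, 0.71 and 0.93 at 4 h, 1.44, 1.22 and 1.60 at 12 h and 1.45, 1.17 and 1.42 at 24 h. It was the 1 gene whose 12 h mean lay above control (0.02), and its 4 h arrays overlapped control. Aph1b, a gamma-secretase subunit, stood at 0.25, 0.01 and 0.66 on the control arrays, -0.07, -0.28 and -0.02 at 4 h, 0.23, -0.02 and 0.52 at 12 h and 0.30, 0.01 and 0.70 at 24 h, with its 12 h mean -0.06 from control. The RNA-binding protein Tia1 differed by -0.35 at 4 h, -0.13 at 12 h and -0.10 at 24 h, the translation-linked Mif4gd by -0.35 at 4 h, -0.21 at 12 h and -0.05 at 24 h, the nuclear long noncoding RNA Firre by -0.29 at 4 h, -0.18 at 12 h and -0.16 at 24 h, and Bhlhb9, of a family related to Armcx, by -0.40 at 4 h, -0.22 at 12 h and -0.12 at 24 h.

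The largest 4 h difference belonged to Gm8579, annotated as a transcribed pseudogene, which stood at 1.86, 1.91 and 1.81 on the control arrays, 1.37, 0.93 and 0.92 at 4 h, 1.43, 1.09 and 1.63 at 12 h and 1.71, 1.63 and 1.84 at 24 h. All its 4 h and 12 h arrays lay below control. It was 1.72-fold lower at 4 h (-0.79 ± 0.263), and -0.48 ± 0.324 from control at 12 h. Gm5512, also a transcribed pseudogene, differed by -0.44 at 4 h, -0.17 at 12 h and -0.03 at 24 h. A probe for a pseudogene may bind RNA of a near-identical gene, so both names are uncertain.

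The probes behind these values were few. Of the 45 genes, 36 had 1 probe, 8 had 2 and 1 had 4. Over the 20 probes of the other 9 genes, 19 lay below control at 4 h. The choice held the averages of these probes low, so nothing is read from this count. The probes of Add3 (-0.55 and -0.61) and Foxn3 (-0.40 and -0.50) were close to each other, as were those of Tia1 (-0.29 and -0.40). The probes of Scel were not: 1 stood at -0.84 and the other at 0.03. Frmd4b had -0.05 and -0.72, and Slc39a10 had -0.13 beside -0.56, -0.68 and -0.72. For Scel and Frmd4b the 4 h difference thus came from 1 probe of the pair. At 24 h that Scel probe stood at 0.30, outside the window. Only the average with the flat probe (0.06 at 24 h) lay inside it. Single probes of Col8a1 (-0.29) and Slc39a10 (-0.25) also lay outside the window at 24 h.

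**Figure D3:**
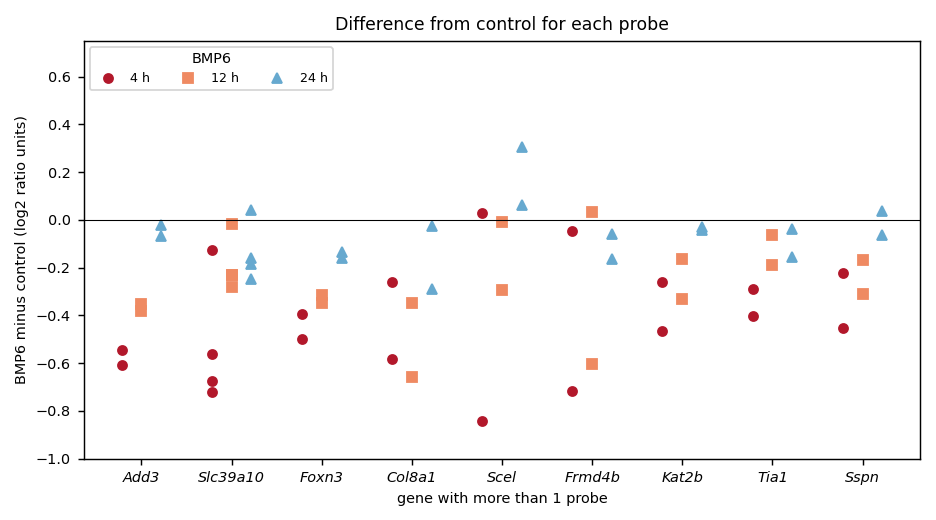
Mean difference from control (log2 ratio units) of each probe for the 9 genes with more than 1 probe, at 4, 12 and 24 h of BMP6; each point is 1 probe, over 3 arrays a group. Scel and Frmd4b each have 1 probe near 0 at 4 h and another at -0.84 and -0.72.

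The 12 h arrays are the ones the choice did not use. In limma's unpaired fit over 17971 features (genes with their probes averaged, and rows with no single gene name), 0 of the 45 passed a Benjamini-Hochberg adjusted p under 0.05 at 12 h, where 0% of features passed in either direction. At an unadjusted p under 0.05, 24 of the 45 were lower, against 1.92% of features. In the fit with the replicate number as a block, called paired, 9 of 45 fell and 0 rose, against 0.395% of features lower and 0.128% higher. At an unadjusted p under 0.05 the paired fit had 42 of the 45 lower and 0 higher, against 6.16% of features lower. The 12 h differences use the control arrays that chose the genes. Both fits also estimate the spread from all arrays, including the 4 h and 24 h arrays that entered the choice. These counts, and the p-values of single members, are therefore not independent of the choice.

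The 9 genes were Cyp39a1 (paired SE 0.094, adjusted p 0.00658), Plcb1 (SE 0.064, adjusted p 0.00886), Col8a1 (adjusted p 0.0256), Add3 (0.0266), Rere (0.0266), Pdlim2 (0.0321), Pde3b (0.033), Foxn3 (0.0488) and Pmp22 (0.0489). Their unpaired adjusted p ran from 0.151 for Cyp39a1 to 1. With 1 array left out at a time, Cyp39a1 missed the paired threshold only without 12 h replicate 2 (0.0623), and Plcb1 without 12 h replicate 2 (its largest adjusted p, 0.0691) or control replicate 2. Col8a1 passed in 7 of the 12 such fits, Rere in 5, Add3 in 4, Pdlim2 and Pde3b in 2 each, Pmp22 in 1 and Foxn3 in 0. Without 12 h replicate 2 the paired fit called 0 of the 45, and 0 features lower or higher. Tgfb2, at -0.44, missed the threshold with all arrays (adjusted p 0.0583).

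In 42 of the 45 genes all 3 pairs were lower at 12 h, against 17.5% of named genes, and in 10 all 3 pairs were at most -0.25, against 0.956%. All 12 h arrays lay below all control arrays in 19 genes, against 4.14% of named genes. The 12 h mean lay between the 4 h mean and control in 40 genes, below the 4 h mean in 4 (Cyp39a1, Plcb1, Tgfb2 and Col8a1) and above control in 1. It was within 0.2 of control in 11 genes. Against the 24 h arrays, which replace the control arrays but also entered the choice, the 12 h mean was lower in 44 of 45 genes (49.7% of named genes), with a median of -0.16. The choice held the 4 h values low and the 24 h values near control, so nothing is read from the place of the 12 h values between them.

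**Figure D4:**
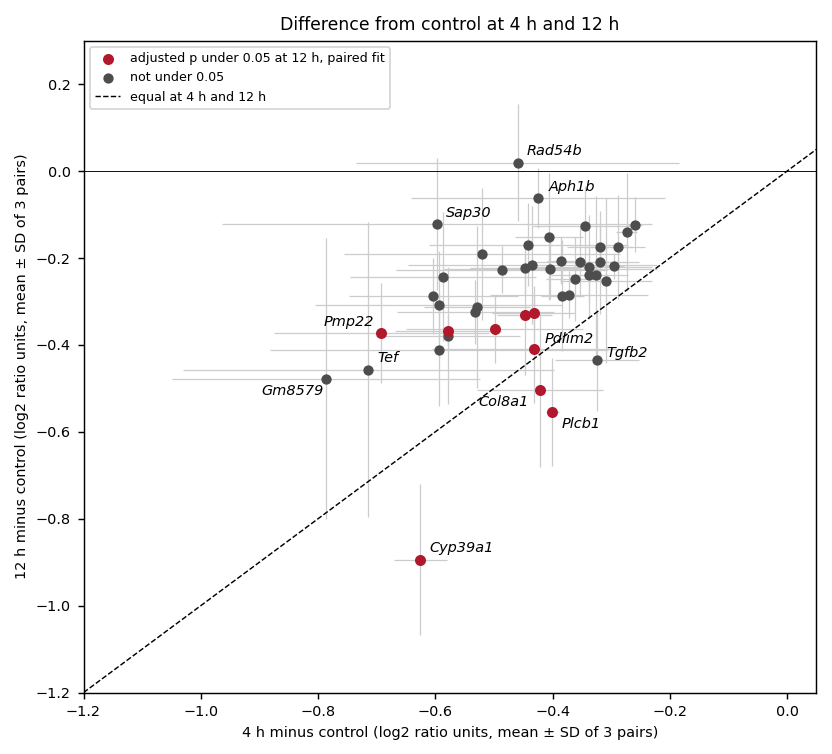
Mean difference from control at 4 h (x axis) and 12 h (y axis) in log2 ratio units for the 45 genes, with bars for the SD over 3 pairs; red points passed an adjusted p under 0.05 at 12 h in the paired fit, and the dashed line marks equal differences. Cyp39a1, Plcb1, Col8a1 and Tgfb2 lie below the line and Rad54b lies above 0; both axes use the same 3 control arrays.

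The share each pair had in the choice differed. When only pairs 2 and 3 were held to both limits, 225 genes met them, 37 of the 45 among these, and the pair 1 difference at 4 h had a median of -0.13 over the 225 and 0.002 over all named genes. It was at most -0.25 in 16.9% of the 225 and 4.02% of named genes. With pairs 1 and 3, 88 genes met the limits, and pair 2 was at most -0.25 in 53.4% of them and 5.95% of named genes. With pairs 1 and 2, 55 genes did, and pair 3 was at most -0.25 in 81.8% of them and 17.9% of named genes. Pair 1 was thus the most selective of the 3. These shares describe how each pair bore on the choice, and no support for the 4 h difference is read from them. If all 9 combinations of 4 h and control arrays had to meet the 4 h limit, 14 genes remained.

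Relative to the reference RNA, the 45 genes stood near the rest of the array. Their median level was 0.26 on the control arrays, -0.18 at 4 h, -0.05 at 12 h and 0.14 at 24 h, while the median over all named genes stayed between 0.014 and 0.031. The highest ratios at 12 h were those of Rad54b (1.42), Gm8579 (1.38), Col8a1 (1.28), Sap30 (1.05) and Prrg4 (0.93), and the lowest those of Cyp39a1 (-1.99), Acadm (-1.68), Marcks (-1.19), Firre (-1.10) and Bhlhb9 (-0.66). A ratio sets a gene against its own signal in the reference and does not rank genes by abundance.

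Related genes were counted from 7 lists, with 98 measured genes beside Tef and Kat2b. At 4 h, 0 of the 98 passed limma's unpaired threshold, where 0.00556% of features passed lower and 0.0612% higher. At an unadjusted p under 0.05 it was 10 of the 98, in either direction, against 5.29% of features. In the paired fit 5 fell and 5 rose, where 1.37% of features fell and 1% rose, with adjusted p from 0.000755 for Adamts1 and Adamts5 to 0.0361 for Insr. Of 17 measured FoxO target and quiescence genes, the growth arrest gene Gas1 (-0.57), the insulin receptor gene Insr (-0.32) and Sesn3 (-0.28) fell, and 0 rose. Of 14 ADAMTS proteases and inhibitors, the aggrecan-cleaving Adamts5 (-1.35) and Adamts1 (-0.81) fell and the metalloprotease inhibitor Timp1 (0.75) rose. Of 13 Kruppel-like factors and their Sp relatives, Klf5 (0.36) rose and 0 fell. Of 10 direct BMP targets, Id1, Id2 and Id3 rose and 0 fell.

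Clock and PAR bZIP genes other than Tef had 0 of 11 called in the paired fit (2 higher at an unadjusted p under 0.05, which 8.57% of features passed lower and 6.83% higher), and their median 4 h difference was 0.04. Histone acetyltransferases and deacetylases other than Kat2b had 0 of 17 called (3 lower and 1 higher unadjusted), with a median of -0.06, and Notch pathway genes 0 of 18 (1 higher unadjusted), with 0.03. The medians were -0.07 for the FoxO list, 0.02 for the ADAMTS list, 0.06 for Kruppel-like factors and 0.07 for BMP targets, against -0.0062 over all named genes. With 1 array left out, the paired call of Insr held in 1 of 12 fits, that of Sesn3 in 8 and that of Id2 in 10, and those of the other 7 genes in all 12. Sesn3 missed without 4 h replicate 2 or 3 or control replicate 2 or 3, and Id2 without 4 h replicate 2 or control replicate 2. At 12 h the paired fit called 3 of the 98 lower (Gas1, Adamts1 and Adamts5) and 4 higher (Timp1, Id1, Id2 and Id3), and the unpaired fit 0 (8 of the 98 at an unadjusted p under 0.05, against 3.21% of features).

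Of 16 endothelial markers 6 were measured, 0 of them above the reference in controls. Above it in controls were 4 of 6 fibroblast and 2 of 6 smooth muscle and pericyte markers. The same held for 0 of 3 blood cell and 1 of 7 epithelial markers. Averaged over the 6 endothelial markers, the level was -1.06 to -0.99 on the 4 h arrays and -1.03 to -0.94 on the control arrays. Markers of other cells gave -0.88 to -0.42 at 4 h against -0.69 to -0.40 in controls for 6 fibroblast markers, and -0.86 to -0.78 against -0.94 to -0.85 for 6 smooth muscle and pericyte markers. For 3 blood cell markers the ranges were -0.80 to -0.77 at 4 h and -0.84 to -0.68 in controls, and for 7 epithelial markers -1.10 to -0.96 and -1.26 to -0.98. The smooth muscle marker Cnn1 rose at 4 h in the paired fit (0.25, adjusted p 0.0316), and 0 of the other 27 marker genes were called. The part of such markers in the differences of the 45 genes was not tested.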

How the data were processed

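RNA of MEC cells (Cy5) and a reference RNA (Cy3) was measured on 12 Agilent 22k Mouse Development arrays. Per the labels, the authors scanned them with a GenePix 4000B scanner, quantified them with GenePix Pro 5.0 and applied a modified local quantiles normalization. The deposited values were taken as log2 ratios of the authors, with base and sign unstated. Array medians lay between -0.044 and 0.002 and SDs between 0.607 and 0.688. Precision is limited by 3 arrays a group.

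Names came from GEO's platform annotation (11083 probe numbers: 10576 with 1 symbol, 507 with several and not named). Of the 10576, 10548 were matched through gene identifiers to RefSeq's gene table (GRCm38.p6) and took its symbol. Probe numbers were laid out on a grid of 215 by 105 positions that is filled in a turned order, which was inferred from these data. Probes of a gene were averaged, and 9704 rows stayed unnamed. limma 3.58.1 (R 4.3.3; lmFit, eBayes, two-sided) was fitted to all 12 arrays and 17971 features, without and with the replicate number as a block, and was tested on simulated data. Benjamini-Hochberg adjustment ran over all features.

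Arrays were paired by title number. Deviations from group means correlated by 0.445 to 0.685 between same-numbered arrays of different groups (18 pairs) and -0.566 to 0.064 between others (36). Deviations within a group sum to 0, so positive values for same numbers push those for different numbers below 0. The gap between these ranges is therefore partly built in. The genes and lists were chosen with earlier results of these data known, and no list is independent evidence; 1 further list is not reported here. Genes were named as the 24 with the lowest 4 h mean, those called at 12 h, list members, neighbours of the limits, the extremes in level, list genes called at 4 h, and Id1, Id2, Id3 and Ptgs2; the rest of the 45 were added so that each is accounted for. Alternatives were other limits, arrays left out, centring, quantile normalization, named genes alone, the first probe alone and the methods' t-test.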

Additional observations from a re-analysis of the deposited data

Results flagged for a closer look

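Scel and Aph1b lay below control in all 3 pairs at 4 h and above control in all 3 pairs at 24 h. The 24 h differences of the pairs were 0.16, 0.14 and 0.26 for Scel. For Aph1b they were 0.056, 0.002 and 0.043, so 1 pair lay almost at control. The mean difference of Scel was -0.41 at 4 h and 0.18 at 24 h (0.184), and that of Aph1b was -0.43 at 4 h and 0.03 at 24 h (0.0337). The difference between the times was not tested, because the 4 h and 24 h values chose both genes. For Scel the 4 h difference came from 1 of its 2 probes, and Aph1b has 1 probe.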

How the results depend on the processing

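The number of genes that met the rule followed its limits: 103 with a 4 h limit of -0.20, 26 with -0.30 and 14 over all 9 combinations of arrays, against 45. Held to 2 pairs, it ran from 55 to 225. With other 24 h windows, centring, quantile normalization or the first probe alone it stayed within 1.5 times of 45. The genes themselves changed more. Of the 45, 35 remained with a 24 h window of 0.15, 36 with quantile normalization, 39 with the first probe alone and 43 with centring. At 12 h the unpaired fit called 0 of the 45 lower and the fit with the replicate block 9, all 9 lower; quantile normalization called 1, Cyp39a1 (adjusted p 0.0288), and the methods' t-test 11 unadjusted and 0 adjusted. With 1 array left out, the unpaired fit called 0 of the 45 each time and the block fit 0 to 9 (9 without 4 h replicate 3, otherwise 0 to 5). Over all features the block called 71 lower and 23 higher, quantile normalization 1 lower, and the methods' t-test 261 lower and 258 higher unadjusted and 0 adjusted. With 1 array left out, the block fit called 0 to 70 lower and 0 to 64 higher; 64 was reached without control replicate 3. For the lists at 4 h the block called 5 lower and 5 higher, against 0 in the unpaired fit. The median 12 h difference of the 45 was -0.157 against the 24 h arrays in place of controls (added after the data were seen), and -0.30 to -0.20 with 1 array left out. The cause of these changes was not tested, apart from the fewer arrays or features that the settings themselves bring. Spot intensities were not used here, so what signal over background limits is not known.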
